A study of Mus musculus with 8 samples.

Results

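The T-box transcription factor genes Tbx1, Tbx2, Tbx3, Tbx4, Tbx5, Tbx15, Tbx18, Tbx20 and Tbx22 were followed through single-nucleus RNA sequencing of the petrous temporal bone (PTB) and of the paraflocculus/flocculus (PF/F), the cerebellar lobule that this bone encloses. They were chosen by symbol, as 9 of the 32285 genes in the count tables, with no threshold on their values. Each tissue gave 4 libraries at postnatal day 5.5, 2 from WT mice and 2 from their Tbx1+/- littermates, and each library pooled 5 mice. The replicate is therefore a library, and p-values measure the spread between libraries. Both sexes were used, sex was not separated within a pool, and which bases the Tbx1+/- allele lacks is not given in the sources used here, so that Tbx1 UMIs cannot check the genotype. Bone was pulverised in the frozen state before nuclei were released and PF/F tissue was only chopped, so preparation and tissue cannot be told apart.

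T-box factors bind DNA through a shared domain and switch programmes of cell identity in the embryo. Tbx1, Tbx15, Tbx18, Tbx20 and Tbx22 belong to one branch of the family. Tbx1 is the best known gene of DiGeorge syndrome and acts in the pharyngeal arches and the ear, Tbx18 acts in the mesenchyme around the inner ear and in precursors of smooth muscle, Tbx15 in the skeleton and skin, Tbx20 in the heart and Tbx22 in the palate. Tbx2, Tbx3, Tbx4 and Tbx5 form the other branch. Tbx2 and Tbx3 are mostly repressors that hold back the cell cycle inhibitor Cdkn1a, and Tbx4 and Tbx5 are known for the hind and fore limb.

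On GRCm38, Tbx1 lies on chromosome 16 from 18580979 to 18590671 on the minus strand, and Tbx18 on chromosome 9 from 87702800 to 87731260, also on the minus strand. Tbx2 and Tbx4 are neighbours on chromosome 11, 44.5 kb apart, and Tbx3 and Tbx5 are neighbours on chromosome 5, 147.9 kb apart. Gene length matters for nuclear RNA, since unspliced reads in introns were counted. Tbx1 spans 9.69 kb and Tbx2 9.40 kb, against 28.5 kb for Tbx18 and 114 kb for Tbx15. The counts of Tbx3, Tbx15 and Tbx18 may be less certain, since a gene on the opposite strand overlaps each, and its part was not tested. Tbx3os1 overlaps Tbx3 and stood at 3.18 CPM in the PTB and 0.706 CPM in the PF/F. Gm43120 overlaps Tbx15 and stood at 1.60 and 0.161 CPM. D030062O11Rik overlaps Tbx18 and was not among the counted genes.

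The 250 bases before the start are shown for the gene with the mutant allele, which has 2 RefSeq start sites, and for Tbx18, the member with the highest level per length in the PTB. Capitals mark a match to GGGCGG or CCAAT on either strand.
Tbx1, start within the annotated gene, chr16:18588900-18589149, minus strand: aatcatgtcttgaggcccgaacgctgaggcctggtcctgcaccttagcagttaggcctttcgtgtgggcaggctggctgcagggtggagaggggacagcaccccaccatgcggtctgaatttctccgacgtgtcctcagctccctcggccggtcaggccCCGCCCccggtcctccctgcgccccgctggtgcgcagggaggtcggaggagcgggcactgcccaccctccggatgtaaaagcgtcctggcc
Tbx1, start at the annotated gene's first base, chr16:18590672-18590921, minus strand: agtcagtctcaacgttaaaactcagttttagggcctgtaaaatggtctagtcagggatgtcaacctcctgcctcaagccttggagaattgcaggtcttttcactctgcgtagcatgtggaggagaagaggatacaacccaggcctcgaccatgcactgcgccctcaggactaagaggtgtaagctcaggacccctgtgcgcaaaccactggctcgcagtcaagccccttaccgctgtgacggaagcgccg
Tbx18, chr9:87731261-87731510, minus strand: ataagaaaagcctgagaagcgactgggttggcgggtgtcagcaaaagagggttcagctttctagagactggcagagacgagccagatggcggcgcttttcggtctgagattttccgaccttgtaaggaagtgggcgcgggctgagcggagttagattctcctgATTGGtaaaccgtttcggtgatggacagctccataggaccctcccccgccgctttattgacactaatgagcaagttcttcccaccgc
These sequences are from RefSeq on GRCm38.p6, whose promoter table held 8 entries for 5 of the 9 members. The Tbx1 entry inside the gene held 17 CpG and 67.2% G and C, the outer one 10 CpG and 54.4%, and the Tbx18 entry 15 CpG and 54.0%, against a median of 6 CpG and 52.4% over all 32851 promoters of that length. A GC box, GGGCGG, lay 91 bases before the inner Tbx1 start in inverted form, and 32.74% of all promoters held one. An inverted CCAAT lay 87 bases before the Tbx18 start, and 33.85% of all promoters held CCAAT. The T-box core, GGTGTG, was in none of the 8 member entries on either strand and in 16.28% of all promoters, and its longer form, AGGTGTGA, was in 1.12% of all promoters.

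The 8 libraries held 33515253 to 52902902 UMIs in 5981 to 13835 annotated nuclei each, and 31076 PTB nuclei fell into 15 types and 48237 PF/F nuclei into 16 types of the authors' annotation. Levels are given as CPM, the UMIs of a gene scaled to 1000000 UMIs of the summed nuclei of a type, with the mean and SD over the 4 libraries of a tissue. Tbx1, the targeted gene, stood over all annotated PTB nuclei at 38.9 and 39.4 CPM in the WT libraries and at 26.3 and 35.7 CPM in the Tbx1+/- libraries, and over those of the PF/F at 0.095 and 0.265 CPM in WT and 0.265 and 0.246 CPM in Tbx1+/- libraries. Pairs of libraries shared 35 to 94 barcodes. Nuclei labelled Osteoclast, Matured chondrocyte, Meningeal, Pericyte, Endothelial and Purkinje had the highest level of their own marker list in their tissue. In 1 of 4 libraries of Endothelial nuclei, however, the erythroid list was far above the endothelial list. In 1 library of Matured chondrocyte nuclei the erythroid list reached 11573 CPM, above the highest chondrocyte list of these nuclei (11055 CPM). The nuclei labelled CP6, a chondrocyte progenitor class, had the highest neuron list of the PTB types (1675 CPM) and a chondrocyte list of 1117 CPM, under the 1471 CPM of all annotated PTB nuclei. CP3 had the highest astroglia list of the PTB types (1484 CPM, against 284 CPM over all annotated PTB nuclei) and the next highest neuron list (430.1 CPM), and the part of these lists in the T-box levels was not tested. The nuclei labelled hypertrophic chondrocyte/Osteoblasts had 368 CPM of the hypertrophic list against 1629 CPM in Matured chondrocyte nuclei. Their osteoblast list (6273 CPM) was under that of all annotated PTB nuclei (7890 CPM), and their pericyte or mural list (485 CPM) was the highest of the PTB types, the next being CT4 (229 CPM). The connective tissue list was higher in Osteoblasts (9655 CPM) than in the connective tissue classes CT1 (7989 CPM), CT3 (4670 CPM) and CT4 (3320 CPM). These labels are used below as the authors' names. As types were clustered on the expression of these same nuclei, levels between types are a description, with no test.

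**Figure D1:**
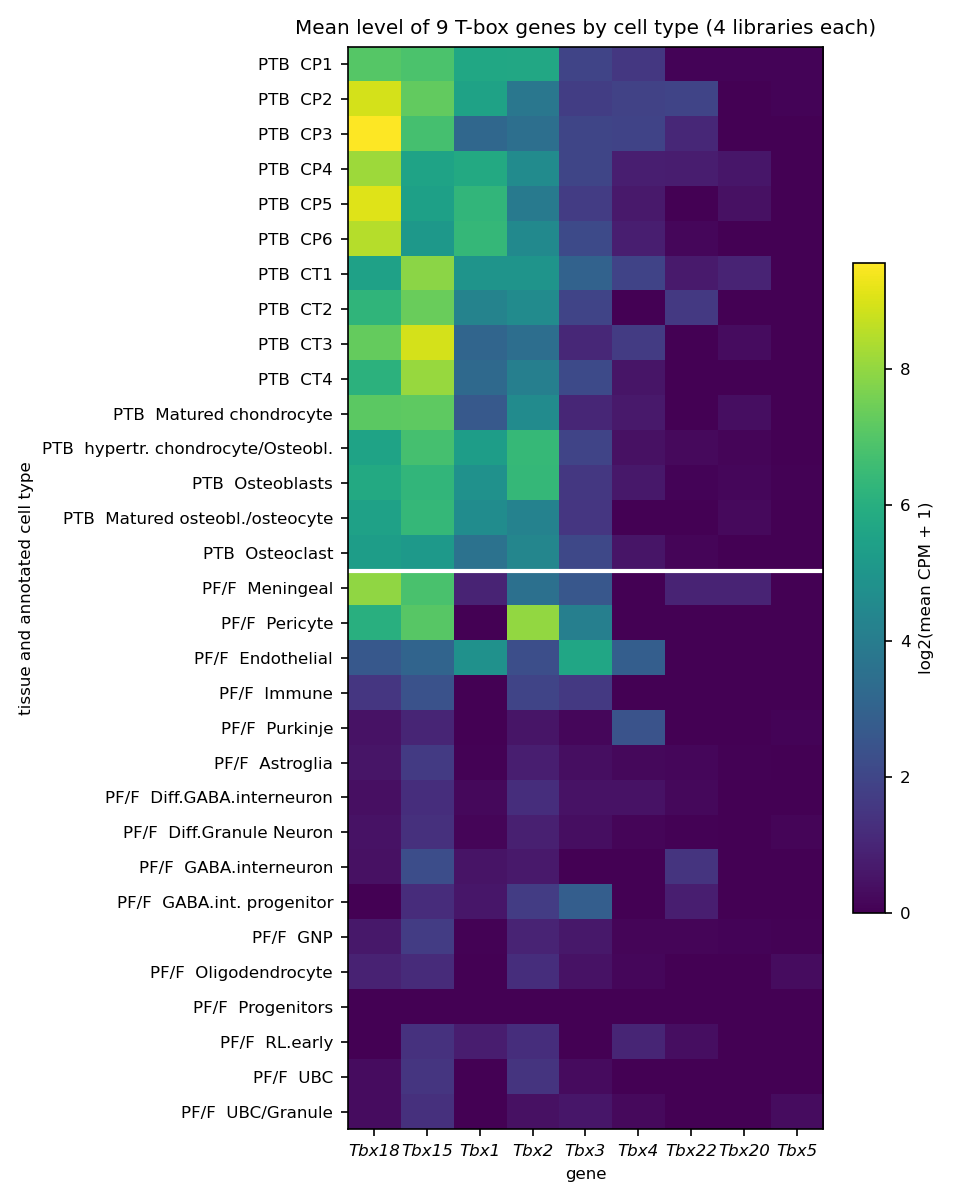
Mean level of the 9 T-box genes (columns) in 31 annotated cell types (rows, PTB above the white line and PF/F below), as log2(mean CPM + 1) over 4 libraries. Tbx18 and Tbx15 are seen in every PTB type and in Meningeal and Pericyte nuclei of the PF/F, and in the neuronal types of the PF/F no mean is above the 6.28 CPM of Tbx3 in GABA.interneuron.progenitor.

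Per kilobase of gene, Tbx18 stood highest of the 9 members in the PTB at 6.69 CPM per kb, followed by Tbx2 at 4.57, Tbx1 at 3.61 and Tbx15 at 1.00 CPM per kb. Tbx3 stood at 0.203 CPM per kb, Tbx4 at 0.039 and Tbx22 at 0.026. In the PF/F the order was Tbx2 at 0.151 CPM per kb, Tbx18 at 0.150, Tbx3 at 0.061, Tbx15 at 0.031 and Tbx1 at 0.022. Without division by length the PTB order was Tbx18 (190 CPM), Tbx15 (114), Tbx2 (43.0) and Tbx1 (34.9). In the PF/F it was then Tbx18 (4.26 CPM), Tbx15 (3.52) and Tbx2 (1.42). By either measure the members fall into 4 with a substantial level in annotated PTB nuclei and 5 with a low one.

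Among the branch of Tbx1, Tbx18 had its highest levels in classes labelled as chondrocyte progenitors. In CP3 it stood at 748 and 767 CPM in the WT libraries and at 709 and 772 CPM in the Tbx1+/- libraries (749 ± 28.5, SD, n = 4). CP5 followed at 545 ± 28.3 CPM, CP2 at 493 ± 22.7, CP6 at 362 ± 32.4 and CP4 at 282 ± 29.1 CPM. The libraries of CP3 did not overlap those of CP5, and CP2, CP6 and CP4 were likewise separated from each other, while CP5 was above CP2 in 4 of 4 libraries with overlapping ranges. CP1 was the lowest of the 6 classes, at 129 ± 15.4 CPM, below the mean of CT3 (154 ± 4.99 CPM) and of Matured chondrocyte nuclei (140 ± 27.3 CPM). Osteoblasts had 54.1 ± 7.55 CPM and Osteoclast nuclei 38.4 ± 3.01 CPM.

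Among the annotated PTB types, Tbx15 had its highest levels in the connective tissue classes. In CT3 it stood at 430 and 543 CPM in the WT libraries and at 487 and 498 CPM in the Tbx1+/- libraries (489 ± 46.6, SD, n = 4), and every one of these was above every CT4 library (272 ± 20.6 CPM). CT1 was at 236 ± 103 CPM and CT2 at 165 ± 48.9 CPM. The large spread of CT1 came from 1 Tbx1+/- library at 391 CPM, where CT1 had 118 nuclei, and the other 3 lay between 174 and 196 CPM. The chondrocyte progenitor classes split into CP2 (153 ± 19.3 CPM), CP1 (115 ± 12.8) and CP3 (106 ± 9.74) on one side and CP4 (45.6 ± 9.17), CP5 (42.2 ± 9.28) and CP6 (33.4 ± 6.97) on the other, the latter close to the 34.3 ± 3.97 CPM of Osteoclast nuclei.

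Tbx1 in CP6 stood at 77.9 and 96.6 CPM in the WT libraries and at 54.7 and 98.0 CPM in the Tbx1+/- libraries. CP6 (81.8 ± 20.2 CPM) and CP5 (76.3 ± 20.8 CPM) were the highest types and could not be placed in order, since CP6 was above CP5 in 3 of 4 libraries. Tbx1 and Tbx18 thus shared CP5 and CP6 and parted in CP3, the type highest for Tbx18, where Tbx1 stood at 8.10 ± 4.06 CPM, below Osteoclast nuclei (11.2 ± 3.50 CPM) in 4 of 4 libraries. Tbx1 and Tbx15 shared neither CP5 and CP6 nor CT3, where Tbx1 stood at 7.74 ± 1.97 CPM.

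Tbx22 and Tbx20 were rare. Tbx22 gave 85 UMIs in the annotated PTB nuclei, 46 of them in CP2, where it stood at 2.22 and 4.32 CPM in the WT libraries and at 3.05 and 1.77 CPM in the Tbx1+/- libraries. CT2 was next at 2.01 CPM with 11 UMIs, and CP5, CT3, CT4, Matured chondrocyte and Matured osteoblasts/osteocyte nuclei had 0 UMIs. Tbx20 gave 32 UMIs, 14 of them in CT1 at 1.96, 1.27, 0.594 and 0 CPM in the 4 libraries, WT first.

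In the other branch, Tbx2 was highest in the nuclei labelled Osteoblasts and hypertrophic chondrocyte/Osteoblasts. It stood in Osteoblasts at 66.2 and 93.2 CPM in the WT libraries and at 74.5 and 94.5 CPM in the Tbx1+/- libraries (82.1 ± 14.0, SD, n = 4), and in the hypertrophic chondrocyte/Osteoblasts class at 83.1 ± 12.8 CPM. The part of the high mural list of the latter class in its Tbx2 level was not tested. These classes changed places between libraries, and both were above CP1 (51.9 ± 9.30 CPM) in 4 of 4 libraries. Matured osteoblasts/osteocyte nuclei had 17.9 ± 4.08 CPM, no more than Osteoclast nuclei at 19.6 ± 3.38 CPM. Among the CP classes, CP1 held most Tbx2 and least Tbx18.

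Tbx3, the close relative of Tbx2, did not follow it in the PTB. Its highest type was CT1 at 6.08 and 3.82 CPM in the WT libraries and at 9.51 and 8.50 CPM in the Tbx1+/- libraries, and the other 14 types had means between 1.04 and 3.44 CPM. Osteoclast nuclei, which serve below as a level for free RNA, were among the latter. They stood at 5.85 and 3.49 CPM in WT and 1.84 and 1.47 CPM in Tbx1+/- libraries. Whether the Tbx3 levels of the other types are free RNA was not tested. Tbx4, next to Tbx2 on the chromosome, stood at 2.81 CPM in CP3, 2.80 in CT1 and 2.74 in CP2, and its 177 UMIs held none in CT2 and Matured osteoblasts/osteocyte nuclei. Tbx5 gave 3 UMIs in all annotated PTB nuclei and 10 in those of the PF/F.

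**Figure D2:**
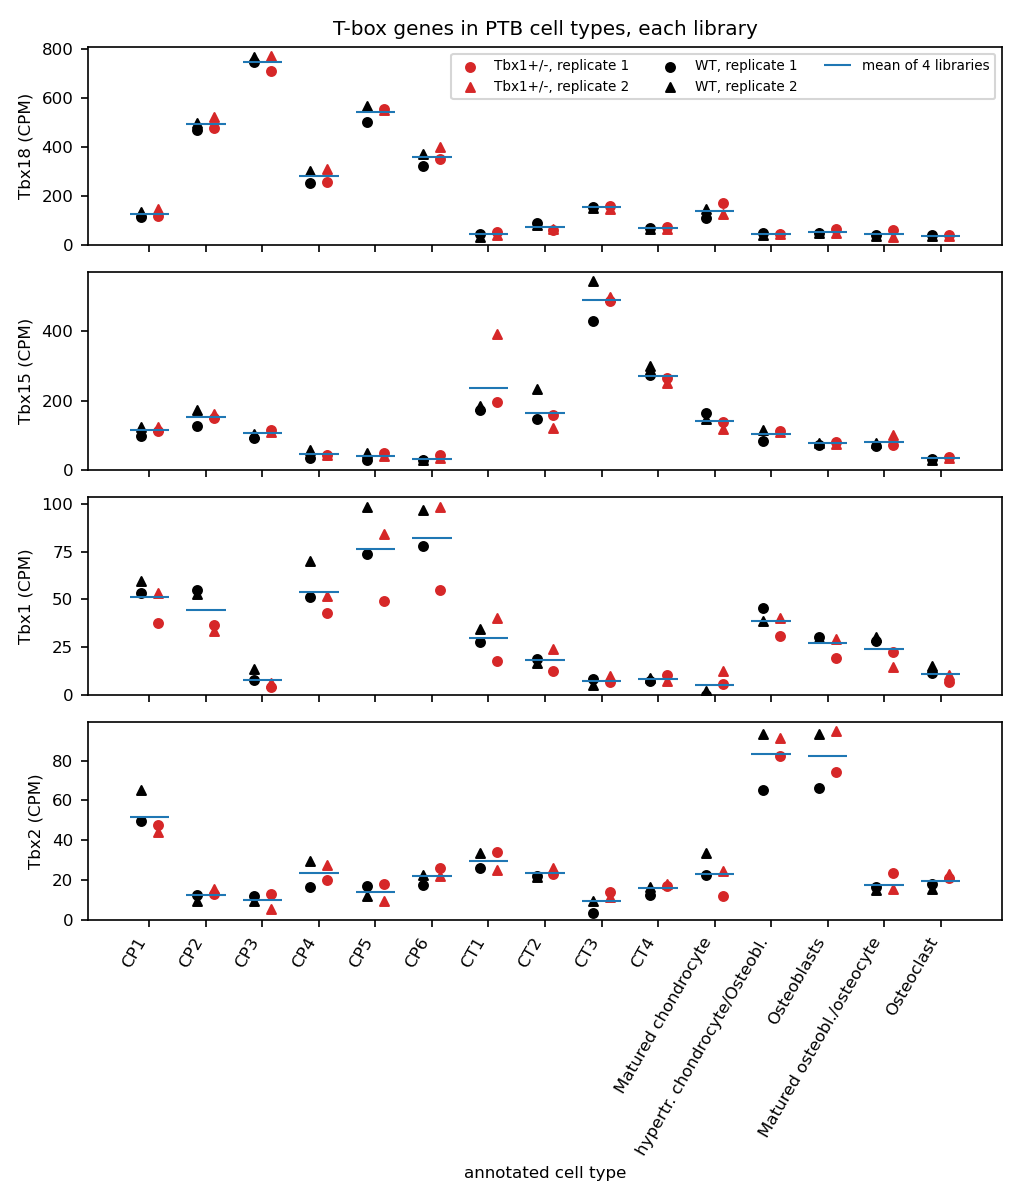
Tbx18, Tbx15, Tbx1 and Tbx2 (panels, CPM of the summed nuclei) in the 15 annotated PTB cell types, with 1 point per library (black WT, red Tbx1+/-, shape by replicate number) and a blue line at the mean of 4 libraries. Tbx18 peaks in CP3 at 749 CPM, Tbx15 in CT3 at 489, and Tbx2 in Osteoblasts and hypertrophic chondrocyte/Osteoblasts at 82.1 and 83.1 CPM. Tbx1 has its highest mean in CP6 at 81.8 CPM, in an order with CP5 that is not settled.

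Shares of nuclei with at least 1 UMI were compared after each nucleus was thinned to 2000 UMIs, which left out 7949 of the 79313 annotated nuclei for want of depth. Tbx18 was then found in 72.8% ± 1.75 of CP3 nuclei (88.2% before thinning, median 3889 UMIs), in 61.9% of CP5 and in 57.2% of CP2 nuclei. Osteoclast nuclei, of the blood lineage, served as a level for free RNA in the same droplets and gave 5.45% (15.9% before thinning, median 5788 UMIs). This use assumes that they make no T-box RNA themselves, which was not tested. Their skeletal muscle list (800.7 CPM) was the highest of the PTB types, against 143.1 CPM over all annotated PTB nuclei, and doublets were not removed. Tbx15 was found in 55.6% ± 6.98 of CT3 nuclei (79.5% before thinning, median 4782 UMIs) and in 36.2% of CT4 nuclei, against 5.67% of Osteoclast nuclei. The shares of 6.82% in CP5 and 6.27% in CP6 lay close to that level.

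Tbx1 was found in 15.0% of CP6 and 13.6% of CP5 nuclei after thinning, against 1.86% of Osteoclast nuclei. Its shares in CP3 (1.40%) and CT3 (1.83%) were no higher than that, and whether they are free RNA was not tested. Tbx2 was found in 14.7% of hypertrophic chondrocyte/Osteoblasts nuclei, 14.5% of Osteoblasts and 10.1% of CP1, against 3.56% of Osteoclast nuclei. In CP2, CP3 and CP5 its shares of 2.19% to 2.71% were below the Osteoclast share. The share in CP6 (3.41%) was also below it, while the level there (22.3 CPM) was above that of Osteoclast nuclei in 2 of 4 libraries.

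Since Tbx18 and Tbx15 were found in different classes, nuclei with UMIs of both were counted in those that had a substantial share of each. In CP2 11.4% of thinned nuclei had both, against 12.1% from the product of the single shares, and in CP3 13.4% against 13.1%. In CT3 the values were 11.9% and 13.0%. Both genes were thus met in the same nucleus about as often as their shares give, on either side of the product depending on the library. For Tbx1 and Tbx18, 7.87% of CP6 nuclei had both against 6.97% from the product, above it in 4 of 4 libraries, and 8.66% of CP5 nuclei against 8.42%, above it in 3 of 4. For Tbx1 and Tbx15 in CP2, 17 of 3483 nuclei had both, 0.440% against 1.65% from the product, below it in 4 of 4 libraries. These are descriptions of nuclei within libraries, with no test.

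In the PF/F, Tbx18, Tbx15, Tbx2 and Tbx3 had their highest levels in the nuclei of vessels and meninges. Of the 743 Tbx18 UMIs in annotated nuclei, 654 were in Meningeal nuclei, which held 2606189 of the 174303641 UMIs. Tbx18 stood there at 176 and 311 CPM in the WT libraries and at 216 and 296 CPM in the Tbx1+/- libraries (250 ± 64.2, SD, n = 4). Both replicates numbered 2 were above both numbered 1, and the genotypes overlapped. Pericyte nuclei had 63.9 ± 46.4 CPM, from 14 UMIs.

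Tbx15 stood in Meningeal nuclei at 95.4 and 141 CPM in the WT libraries and at 111 and 95.5 CPM in the Tbx1+/- libraries. Pericyte nuclei were at 133 ± 60.6 CPM and above Meningeal nuclei in 1 of 4 libraries, so the order was not settled. With only nuclei of at least 2000 detected genes the means were 54.1 CPM in Pericyte and 98.9 CPM in Meningeal nuclei. There were only 12 to 25 Pericyte nuclei per library, and 31 Tbx15 UMIs. Among neurons and glia Tbx15 means lay between 0 and 3.81 CPM.

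Tbx2 stood in Pericyte nuclei at 230 and 340 CPM in the WT libraries and at 213 and 251 CPM in the Tbx1+/- libraries (259 ± 56.7, SD, n = 4, 58 UMIs). Every Pericyte library was above every library of the next type, Meningeal (10.6 CPM). After thinning, 42.1% of the 55 remaining Pericyte nuclei had a Tbx2 UMI, against 2.31% of Meningeal nuclei. With only nuclei of at least 2000 detected genes the mean level was 104 CPM.

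Tbx3 had 35 UMIs in Endothelial nuclei, at 15.3 and 68.8 CPM in the WT libraries and at 77.0 and 35.7 CPM in the Tbx1+/- libraries. With only nuclei of at least 2000 detected genes the mean was 26.4 in place of 49.2 CPM. Endothelial nuclei, 15 to 65 per library, also held the highest PF/F level of Tbx1 (27.3 ± 23.3 CPM). It stood at 0 and 31.8 CPM in WT and 56.0 and 21.4 CPM in Tbx1+/- libraries, on 0 to 8 UMIs each. Of the 4 libraries, Tbx1+/- replicate 2 had 17142 CPM of the erythroid list against 229 to 858 CPM in the other 3, and its part in these values was not tested. Tbx3 also had 41 UMIs in nuclei labelled GABA.interneuron.progenitor, at 6.93 and 7.12 CPM in WT and 4.70 and 6.35 CPM in Tbx1+/- libraries, whereas the differentiated class, Diff.GABA.interneuron, had a mean of 0.374 CPM. The GABAergic marker list was at 259 CPM in the former and 1623 CPM in the latter, so the first label rests on the authors' annotation.

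Tbx4 gave 67 UMIs in the annotated PF/F nuclei, and 40 of them were in Purkinje nuclei, the output neurons of the cerebellar cortex, which held 9471630 UMIs. The libraries gave 12 and 10 UMIs in WT and 8 and 10 UMIs in Tbx1+/-, at 6.06, 3.99, 4.61 and 3.08 CPM. The pooled level of 4.22 CPM had an exact Poisson 95% interval of 3.02 to 5.75 CPM, which covers counting error only. In the other neuron and glia types its means lay between 0 and 0.974 CPM, and Endothelial nuclei had 4 UMIs, at 21.0 and 3.57 CPM in the Tbx1+/- libraries and 0 in both WT libraries, a mean of 6.14 CPM that was above that of Purkinje nuclei. Nuclei labelled Progenitors had 0 UMIs of all 9 members in 1290383 UMIs, which, with the limit set at 3 counts, allows a level of up to 2.32 CPM for each.

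**Figure D3:**
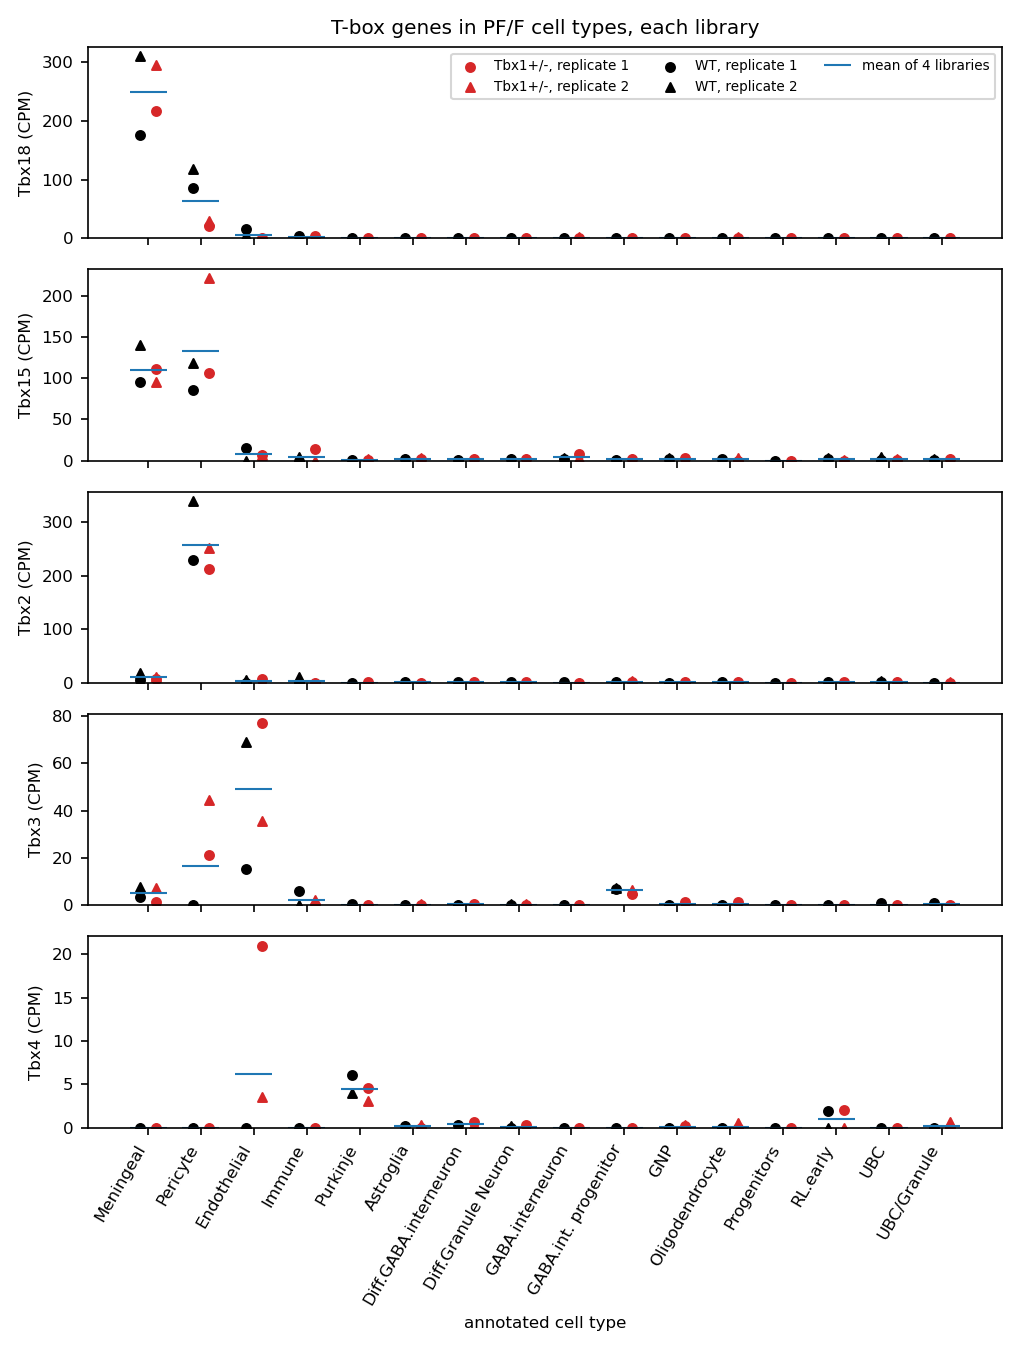
Tbx18, Tbx15, Tbx2, Tbx3 and Tbx4 (panels, CPM of the summed nuclei) in the 16 annotated PF/F cell types, with 1 point per library (black WT, red Tbx1+/-, shape by replicate number) and a blue line at the mean of 4 libraries. Tbx18 is highest in Meningeal (250 CPM), Tbx2 in Pericyte (259 CPM) and Tbx3 in Endothelial nuclei (49.2 CPM), and the Purkinje points of Tbx4 lie between 3.08 and 6.06 CPM.

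The tissues were then compared over all annotated nuclei, a comparison in which cell makeup and RNA per nucleus cannot be told apart. The annotated PTB nuclei are the connective tissue, chondrocyte and bone classes, on which the paper focused after finding Tbx1 pronounced there. The annotated PF/F nuclei are all those the paper analysed. A chosen part of the PTB, picked partly by Tbx1, is thus set against the whole PF/F. Tbx1, Tbx2, Tbx3, Tbx4, Tbx15 and Tbx18 were higher in the PTB, each with an adjusted p under 0.05 and more than a 1.5-fold change by edgeR's quasi-likelihood test. The labels do not say whether PTB and PF/F libraries came from the same mice, and this test and that of the interaction treated them as separate. Of all 22148 genes tested, 28.7% were called higher in the PTB and 32.2% lower. Tbx5 did not pass the filter on low counts, and Tbx20 and Tbx22 passed it only through their PTB counts, so that they had to differ and are given as values only.

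Tbx1 had the largest difference, with 26.3 to 39.4 CPM in the PTB libraries and 0.095 to 0.265 CPM in the PF/F libraries, a log2 difference of 7.29 (SE 0.23, edgeR adjusted p = 5.7e-09), or 6.17 over all deposited barcodes. Tbx18 had 172 to 199 CPM against 2.80 to 5.10 CPM (log2 5.5, SE 0.19, edgeR adjusted p = 9.5e-09). Tbx15 had 103 to 129 CPM against 2.70 to 3.88 CPM (log2 5.03, SE 0.14, edgeR adjusted p = 2.6e-09). For none of these did a PTB library come near a PF/F library.

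Tbx2 had 34.3 to 47.9 CPM in the PTB and 1.23 to 1.67 CPM in the PF/F (log2 4.92, SE 0.15, edgeR adjusted p = 4.1e-09). Tbx3 had 1.80 to 3.43 CPM against 0.593 to 0.987 CPM (log2 1.70, SE 0.26, edgeR adjusted p = 2.6e-04), and Tbx4 0.944 to 1.31 CPM against 0.356 to 0.458 CPM (log2 1.57, SE 0.20, edgeR adjusted p = 7.9e-05). The libraries did not overlap for these genes either, although the differences of Tbx3 and Tbx4 were smaller. That of Tbx3 was 2.21 with nuclei of at least 2000 detected genes and 3.38 over all deposited barcodes. Osteoclast nuclei alone had 1.47 to 5.85 CPM of Tbx3 in the PTB libraries, and the part of free RNA in its difference was not tested. Tbx22 had 15 to 30 UMIs in PTB and 2 to 10 UMIs in PF/F libraries, at 0.429 to 0.895 against 0.048 to 0.237 CPM. Tbx20 had 2 to 16 UMIs in PTB and 0 to 3 UMIs in PF/F libraries, and its levels overlapped.

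Partners, upstream and downstream genes of T-box factors in the ear, pharynx, limb, palate and heart were taken from a list of 46 genes. Of 42 tested, 26 were called higher in the PTB and 12 lower, against 28.7% and 32.2% of all 22148 genes tested. This count is a description, since it includes genes such as Osr2, Cyp26a1 and Hand2, which had 0 UMIs in the PF/F, passed the filter only through the PTB and had to differ. Higher in the PTB were the otic and pharyngeal regulator Eya1 (3.27), the mesenchyme factors Foxc1 (4.62), Foxc2 (5.82), Prrx1 (3.79), Meox2 (4.07) and Pou3f4 (3.75), and the secreted factors Bmp2 (4.53), Bmp4 (2.54) and Slit2 (4.17), all on the log2 scale with edgeR adjusted p values under 0.05. Cdkn1a, repressed by Tbx2 and Tbx3 elsewhere, was also higher in the PTB, at 31.3 to 40.9 CPM against 3.79 to 5.83 CPM (log2 2.88, SE 0.13). Osr2 had 565 UMIs in the PTB and 0 in the PF/F, at least 215-fold higher, and Cyp26a1, which breaks down retinoic acid, had 126 and 0 UMIs, at least 47.9-fold higher.

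Lower in the PTB were the growth factors Fgf8 (-4.35), Fgf3 (-3.78) and Fgf10 (-0.93), the retinoic acid enzyme Cyp26b1 (-3.96), Shh (-2.88), Chrd (-1.92), Dll4 (-1.81), Nppa (-1.92), Gbx2 (-1.67), Msc (-1.31), Ripply3 (-1.17), which binds T-box factors, and Gja5 (-0.98), on the log2 scale. Of these, Fgf3, Fgf8 and Gbx2 did not pass the filter within the PTB, so that they entered through the PF/F and had to differ. Gata4, Crkl, Tle1 and Isl1 were not called by edgeR, and DESeq2 called Isl1 higher. Of the 7 other T-box genes listed, Tbx6 was called higher (0.79) and Tbx21, which passed only through the PF/F, lower (-1.27) in the PTB, and Tbr1 (-0.30) and Mga (0.57), whose difference was under 1.5-fold, were not called by edgeR. DESeq2 put Mga just past that fold (0.59) and called it. Mga was the most abundant at 173 to 187 CPM in the PTB and 117 to 124 CPM in the PF/F.

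**Figure D4:**
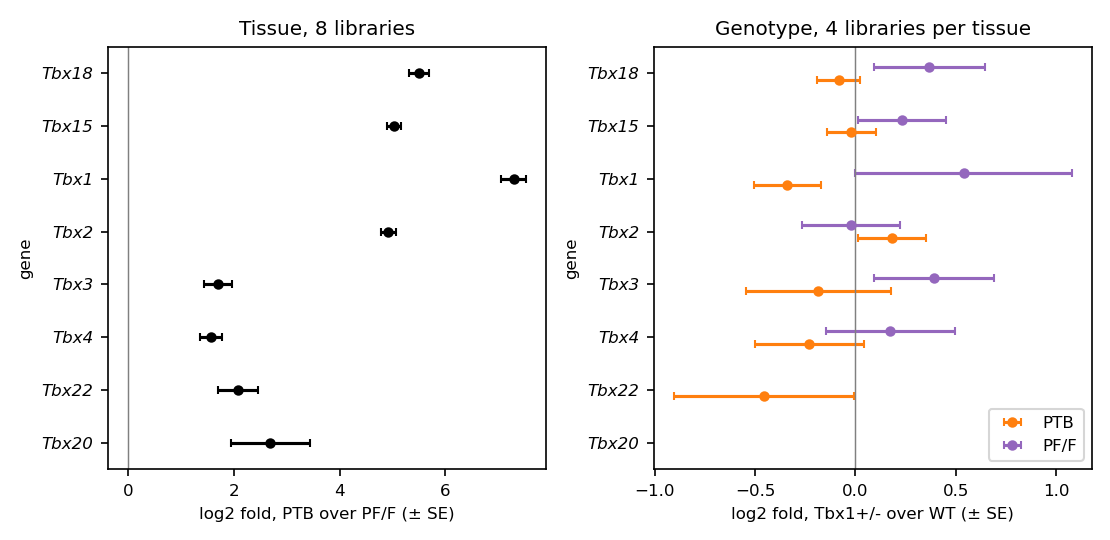
Log2 differences of the T-box genes with standard errors as bars, on the left PTB over PF/F in 8 libraries and on the right Tbx1+/- over WT within the PTB (orange) and PF/F (purple), 4 libraries each. The 8 tissue differences lie above 1.5 on the log2 scale, of which those of Tbx20 and Tbx22 are values only, and the genotype differences lie between -0.46 and 0.54. Tbx20 and, for the PF/F, Tbx22 did not pass the filter for the genotype test, and Tbx5 passed it for neither test.

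The genotypes were compared to ask whether loss of 1 Tbx1 allele moved the other T-box genes. Over all annotated PTB nuclei, 0 of 7 members tested were called, as were 0% of the 20250 genes tested, and 0 of 7 had an unadjusted p under 0.05 by edgeR or by DESeq2. Tbx1 differed by -0.34 (SE 0.17, edgeR adjusted p = 1.0) on the log2 scale, with both Tbx1+/- libraries below both WT libraries and 1 of them, at 35.7 CPM, near the WT values of 38.9 and 39.4 CPM. Leaving out each library in turn gave -0.57 to -0.14. With 2 libraries on each side, the smallest p of an exact permutation test is 0.33. The paper reports a significant reduction of Tbx1 in these PTB populations of mutant mice. Its genotype comparisons of genes used Seurat's FindMarkers in each cell type, whereas sums per library were tested here.

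Tbx18, the most abundant member, differed by -0.08 (SE 0.11), with a 95% interval of -0.35 to 0.19, and Tbx15 by -0.02 (SE 0.12), with an interval of -0.33 to 0.29. The WT libraries of Tbx18 were at 195 and 197 CPM and those of Tbx1+/- at 172 and 199 CPM, on both sides of them. Tbx2 differed by 0.18 (SE 0.17), Tbx3 by -0.18 (SE 0.36), Tbx4 by -0.23 (SE 0.27) and Tbx22 by -0.46 (SE 0.45), each with an edgeR adjusted p of 1.0. The 2 Tbx4 libraries of Tbx1+/- mice, at 1.18 and 0.944 CPM, were below the WT libraries, at 1.19 and 1.31 CPM, and rested on 33 to 52 UMIs each.

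Within the 15 PTB types, 63 tests of members gave 0 calls, as did 0% of the 187198 tests of all genes. By edgeR 3 of the 63 had an unadjusted p under 0.05, 4.76% against 1.81% over all genes, and by DESeq2 2 of 63, 3.17% against 0.284% over all genes. The first was Tbx1 in CP2, at 55.1 and 52.6 CPM in WT and 36.9 and 33.4 CPM in Tbx1+/- libraries (log2 -0.61, SE 0.15, edgeR adjusted p = 0.9999). The second was Tbx18 in CT2, at 91.3 and 80.6 CPM in WT and 60.5 and 64.1 CPM in Tbx1+/- libraries (log2 -0.47, SE 0.19, edgeR adjusted p = 0.9999). In both of these the genotypes did not overlap. For Tbx1 this was so in 6 of the 15 types with Tbx1+/- lower (CP1, CP2, CP3, Osteoblasts, Matured osteoblasts/osteocyte and Osteoclast). It was also so in 1, Matured chondrocyte, with Tbx1+/- higher, on 1 and 11 UMIs in the Tbx1+/- libraries. Of these types, Osteoclast served as the level for free RNA and CP3 was no higher. Other members also separated, Tbx2 in 1 type with Tbx1+/- lower and 5 higher, and Tbx15 in 2 lower and 4 higher. A separation of 2 against 2 libraries has an exact permutation p of 0.33, and the share over all genes is not given here.

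The third was Tbx15 in CT1, at 174 and 184 CPM in WT and 196 and 391 CPM in Tbx1+/- libraries (log2 0.66, SE 0.28, edgeR adjusted p = 0.9998). It rested on Tbx1+/- replicate 2 of the PTB, in which CT1 had 118 nuclei against 332 to 1315 in the others. Without that library the log2 difference was 0.13. The connective tissue list in CT1 was also lowest in that library, at 6405 CPM against 7300 to 9383 CPM, and its part in the difference was not tested.

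In the PF/F, 0 of 6 members were called over all annotated nuclei, as were 0% of 20756 genes, and 0 of 6 had an unadjusted p under 0.05 by edgeR or DESeq2. The log2 differences were 0.54 for Tbx1 (SE 0.54), 0.39 for Tbx3 (SE 0.30), 0.37 for Tbx18 (SE 0.28), 0.23 for Tbx15 (SE 0.22), 0.17 for Tbx4 (SE 0.32) and -0.02 for Tbx2 (SE 0.25). Tbx3 stood at 0.593 and 0.902 CPM in WT and 0.987 and 0.945 CPM in Tbx1+/- libraries, which did not overlap and held 25 to 50 UMIs each. Over all deposited barcodes the genotypes overlapped, at 0.606 and 1.297 CPM in WT and 1.271 and 1.270 CPM in Tbx1+/- libraries. Tbx22 gave 10 and 7 UMIs in WT and 2 and 4 UMIs in Tbx1+/- libraries and was too rare for the test. In PF/F types 0 of 10 tests of members were called or had an unadjusted p under 0.05 by either tool, against 0.000598% of 167207 tests called over all genes by edgeR, which is 1 test, Ttr in Purkinje nuclei. DESeq2 called Ttr in Purkinje and in Astroglia nuclei.

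Whether a genotype difference differed between the tissues was tested by the interaction term. None of 8 members was called, as were 0% of all genes, and 0 of 8 had an unadjusted p under 0.05 by edgeR or DESeq2. The largest were Tbx20 at 1.28 (SE 1.72), Tbx22 at 1.23 (SE 0.75) and Tbx1 at -0.88 (SE 0.53, edgeR adjusted p = 0.9999) on the log2 scale. Tbx20 and Tbx22 passed the filter only through their PTB counts and had 0 to 3 and 2 to 10 UMIs in PF/F libraries, so theirs are values only. Of the 46 partner genes, 0 of 38 tested in the PTB and 0 of 37 in the PF/F were called by genotype. The smallest unadjusted p values in the PTB were those of Cdkn1a (log2 0.29, SE 0.11), Foxa2 (1.16, SE 0.50), Tle1 (-0.25, SE 0.14) and Chrd (-0.41, SE 0.24), each with an edgeR adjusted p of 1.0.

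The pattern of each gene over types was last set beside that of all genes reaching 10 CPM in some type, by Pearson's r of log2(mean CPM + 1) over 31 types, as a description with no test, since types of a tissue share libraries and free RNA. Among the members Tbx15 and Tbx18 were most alike at r = 0.894. Within the tissues r was -0.189 over the 15 PTB types and 0.961 over the 16 PF/F types. Apart from Meningeal and Pericyte nuclei, the highest PF/F means were those of Endothelial nuclei, 5.15 CPM of Tbx18 and 7.35 CPM of Tbx15. The part of Meningeal and Pericyte nuclei in the PF/F value of r was not tested. Tbx1 and Tbx18 had r = 0.785 over all types and 0.244 within the PTB. Tbx1 with Tbx15, and Tbx2 with Tbx18, each had r = -0.528 within the PTB.

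**Figure D5:**
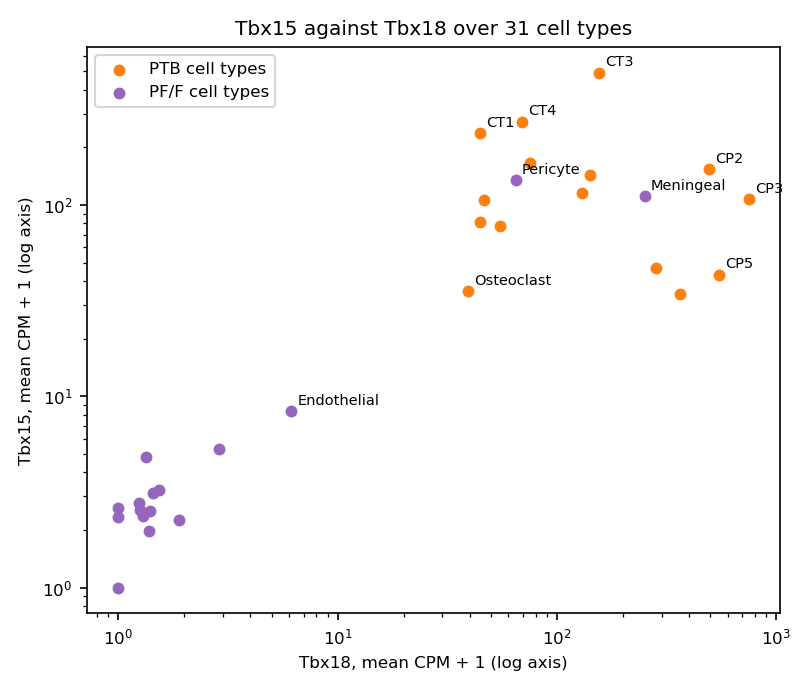
Mean level of Tbx15 against that of Tbx18 (CPM + 1, both axes on a log scale) in 31 annotated types, 1 point each, orange for PTB and purple for PF/F. The 2 genes rise together from PF/F neurons to Meningeal and PTB types (r = 0.894 on log2 values over 31 types), and within the PTB types no such relation is seen (r = -0.189).

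Of other genes, the nearest to Tbx18 over all 31 types were Cped1 (r = 0.953), C1qtnf1 (0.947) and the collagen gene Col3a1 (0.946), and the nearest to Tbx15 were the growth factor gene Igf2 (0.973), Frk (0.964) and the collagen gene Col6a2 (0.955). Tbx2 was nearest to Carmn (0.923), a transcript of smooth muscle, Abcc9 (0.912), a channel subunit of mural cells, and Gprc5c (0.902). Tbx3 was nearest to Tmem173 (0.881), the endothelial junction gene Esam and Kbtbd2 (both 0.855). Tbx1 was nearest to S100a9 (0.924) and S100a8 (0.914), both made by neutrophils and at 19.2 and 15.2 CPM at most, and to Gigyf2 (0.910). The nearest genes of the rare members were Nr5a2 for Tbx4 (0.746), Il13ra2 for Tbx20 (0.700), Agtr1b for Tbx22 (0.726) and Glra1 for Tbx5 (0.705).

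Over the 15 PTB types alone other genes were among the nearest. They were the ectodysplasin receptor gene Edar (0.926) and Plcxd3 (0.922) for Tbx18, and Impg2 (0.907), Lrig3 (0.887) and the craniofacial homeobox gene Alx4 (0.871) for Tbx15. For Tbx2 they were Dlx6 (0.912), a homeobox gene of the jaw and of osteoblasts, Tmem59 (0.879) and Abhd15 (0.875), and for Tbx1 D830024N08Rik (0.913), Ccdc167 (0.903) and Tinf2 (0.852). This restriction to the PTB types was chosen after seeing the data.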

How the data were processed

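Nuclei of the PTB and PF/F were measured in 8 libraries at postnatal day 5.5. The deposited values are UMI counts of genes in barcodes, made by the authors on mm10, introns included, with Cell Ranger 7.0.0. The authors corrected for free RNA in their own analysis, and that correction is not in the counts used here. Annotated barcodes and their types were taken from the authors' tables. No doublets were removed. An alternative left out the 8% of nuclei with most UMIs in each library.

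UMIs were summed per library over each type and over all annotated nuclei. Sums were tested with the quasi-likelihood test of edgeR 4.0.16 in R 4.3.3, with filterByExpr, TMM factors and Benjamini-Hochberg adjustment over all genes. A call needed an adjusted p under 0.05 and more than a 1.5-fold change. DESeq2 1.42.0, other scaling factors, no filter, all deposited barcodes and leaving out each library were alternatives. The fits were tested on simulated data. Promoters were taken from RefSeq and gene positions from GENCODE. The text names every member, the 3 genes most like each, and partner genes that were called or had the smallest p values, apart from some that are not reported here. Members and lists were chosen with earlier results of these data known. Poisson intervals cover counting error only, and those of log2 differences the spread between libraries too.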

Additional observations from a re-analysis of the deposited data

Results flagged for a closer look

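Barcodes outside the annotation used here, which entered only the alternative over all deposited barcodes, held UMIs of the members above the limit that a count of 0 allows. The paper's bone atlas was larger than the annotated PTB nuclei and also held immune cells and neurons, which have no label among the annotated PTB types. Part of the PTB barcodes outside may thus have been annotated in the paper. In the PTB the pooled level outside was 41.3 CPM for Tbx1, 55.9 for Tbx2, 21.5 for Tbx3, 0.724 for Tbx4, 0.075 for Tbx5, 52.1 for Tbx15, 98.1 for Tbx18, 0.301 for Tbx20 and 0.328 CPM for Tbx22. In the PF/F it was 2.09 CPM for Tbx1, 2.33 for Tbx2, 2.46 for Tbx3, 0.706 for Tbx4, 3.99 for Tbx15 and 4.54 CPM for Tbx18.

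Tbx3 differed most between these barcodes and the annotated nuclei of the PTB. It gave 3142 UMIs outside the annotation, at 19.9 to 22.8 CPM per library, against 435 UMIs and 2.85 CPM in annotated nuclei. Of the 32101 barcodes outside, 59 had the epithelial list as their highest and gave 129 CPM of Tbx3 from 91 UMIs. The unipolar brush cell list was highest in 274, which gave 69.5 CPM from 153 UMIs. The osteoblast list was highest in 17142, which gave 23.3 CPM. That list stood at 3445 CPM even in annotated Osteoclast nuclei, so the highest list does not name a cell type. PTB barcodes outside with the skeletal muscle list highest gave 303 ± 56.2 CPM of Tbx15 (SD, n = 4, 425 UMIs). In the PF/F, 86 barcodes outside with the endothelial list highest gave 48.7 CPM of Tbx3. They also gave 46.4 CPM of Tbx1 from 39 UMIs, at 20.1 to 53.1 CPM per library. Groups of 2 libraries were too small to look for a library far from the others.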

How the results depend on the processing

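The 83 alternatives of the main results changed no direction or call, among them sums without scaling factors, a setting chosen after seeing the data. The tissue comparison called Tbx1, Tbx2, Tbx3, Tbx4, Tbx15 and Tbx18 in every alternative, and genotype and interaction called 0. Of values for single genes, 249 kept their direction and side of the threshold or, for levels, moved by less than the SD between libraries, 2 levels moved by more and 4 differences, none of them called, turned in sign. Sizes moved further, from -0.57 to -0.14 for the Tbx1 genotype difference in the PTB, 0.13 to 1.09 for Tbx15 in CT1, 6.17 to 7.43 for Tbx1, 1.52 to 3.38 for Tbx3 and 1.02 to 2.02 for Tbx4 between tissues, all log2, and 17.7 to 36.4 CPM for Tbx1 and 26.4 to 60.5 CPM for Tbx3 in Endothelial nuclei. With nuclei of at least 2000 detected genes, Pericyte nuclei stood at 54.1 CPM for Tbx15 and 104 CPM for Tbx2. The PTB genotype difference of Tbx2 lay between -0.02 and 0.42 on the log2 scale when each library was left out, that of Tbx15 between -0.16 and 0.14, and that of Tbx18 between -0.19 and 0.02. The lone values past 0 were -0.0203 for Tbx2 without WT replicate 1, 0.14 for Tbx15 without WT replicate 2 and 0.0211 for Tbx18 without Tbx1+/- replicate 1. Without the nuclei with most UMIs Tbx15 gave 0.0126. The cause was not tested. With the replicate block, no call of a member changed, with 0 called by genotype. The study describes 2 batches of animals, but the labels give only a number and do not tie it to a batch. Same-numbered libraries deviated together with a correlation of 0.478 in the PTB and 0.55 in the PF/F. Pericyte nuclei (12 to 25 per library) and the rare genes Tbx5, Tbx20 and Tbx22 are limited by depth.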
